A study of Mus musculus with 9 samples.

Results

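A set of 10 genes of the neuronal cytoskeleton and growth cone were followed by RNA-seq in undifferentiated mouse embryonic stem cells (ESCs): Stmn2, Gap43, Tubb3, Mapt, Map1b, Map1s, Ina, Nefl, Nefm and Nefh. They were taken by name, as 10 of the 44788 genes in the deposited table, and all 10 had values high enough to be tested, as had 22268 genes in all. The list was drawn up with earlier results of these data known. Ina and Map1s also stand among the candidate genes that the study picked with the help of these samples, so their direction is not independent evidence.

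The study asked what the transcription factors Foxj3, a forkhead protein, and Zbtb18, a zinc finger protein also called RP58, do when they are stably expressed in ESCs. Libraries came in 3 groups of 3. Foxj3-ES and Zbtb18-ES were lines of J1 ESCs, a mouse line, made with lentivirus carrying the coding sequence of the one or the other factor and a puromycin selection marker, and Control was J1 ESCs labelled wild type, with no vector named in the labels. All were grown without feeder cells or serum and with LIF, the cytokine that keeps ESCs undifferentiated, and RNA was sequenced on an Ion Proton. In comparisons with Control, effects of a factor and of the vector, its integration or the selection cannot be told apart. Whether a line was 1 clone or a pool was not stated. The study describes its data in general as repeated independently but says nothing of these libraries, and their labels name no separate cultures, so that the p-values measure the spread between these libraries only, which may be technical.

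The axon is held up by microtubules and neurofilaments. Microtubules are polymers of α- and β-tubulin. Stathmins bind tubulin dimers and destabilise microtubules, whereas microtubule-associated proteins such as tau bind and stabilise them. Neurofilaments are intermediate filaments that neurons build from light, medium and heavy chains together with α-internexin, and GAP-43 is a membrane protein of the growth cone, the motile tip of a growing axon. These genes are widely used as markers of neuronal differentiation, although several of them also have transcripts in dividing cells.

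For the 2 genes that fell in both lines, and for the single gene with a motif match, the RefSeq promoter is shown (GRCm38.p6). It runs from 250 bases before to 50 bases after the RefSeq start site. That site differs from the GENCODE start of each gene given below, and the Map1b window lies wholly before the GENCODE start. The table of promoters held 4 of the 10 genes, Tubb3, Map1b, Map1s and Ina. The forkhead word TGTTTAC or GTAAACA was in 0 of these 4, and in 3.65% of all 32851 promoters of the same length. The core of the sequence bound by Zbtb18, CATCTG or CAGATG, was in 1 of the 4, Map1b, and in 17.2% of all promoters. Its first base in Map1b was at -213 from the RefSeq start site. Both strands were searched, the words do not overlap each other in these promoters, and capitals mark the match. Map1s (chr8:70905724-70906023, + strand) and Ina (chr19:47014431-47014730, + strand) fell in both lines, and Map1b (chr13:99516553-99516852, - strand) did not.
Map1s: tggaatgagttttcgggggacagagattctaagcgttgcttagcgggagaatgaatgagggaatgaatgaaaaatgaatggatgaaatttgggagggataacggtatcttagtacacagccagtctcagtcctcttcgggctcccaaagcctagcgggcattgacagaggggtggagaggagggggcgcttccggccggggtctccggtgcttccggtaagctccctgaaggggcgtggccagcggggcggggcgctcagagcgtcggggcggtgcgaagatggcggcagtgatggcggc
Ina: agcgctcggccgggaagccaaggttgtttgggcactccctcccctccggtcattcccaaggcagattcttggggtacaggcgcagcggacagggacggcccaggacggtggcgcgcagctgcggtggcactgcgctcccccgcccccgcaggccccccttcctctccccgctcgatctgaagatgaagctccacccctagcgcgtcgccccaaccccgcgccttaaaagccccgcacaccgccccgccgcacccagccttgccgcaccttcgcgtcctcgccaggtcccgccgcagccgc
Map1b: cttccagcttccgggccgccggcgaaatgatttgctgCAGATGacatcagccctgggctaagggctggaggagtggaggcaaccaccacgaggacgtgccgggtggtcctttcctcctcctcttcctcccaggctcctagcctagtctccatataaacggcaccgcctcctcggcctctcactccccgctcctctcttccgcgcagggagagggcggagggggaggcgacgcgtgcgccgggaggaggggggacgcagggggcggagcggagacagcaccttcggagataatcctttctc
The GC content was 59.3% in the Map1s promoter, 71.7% in the Ina promoter and 65.7% in the Map1b promoter, against a median of 52.7% over all promoters. A match or its absence describes these letters in this window and says nothing of binding.

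Values are UQRPKM, reads per length of the gene scaled by the upper quartile of the library, as the authors deposited them. They are scaled by length, and levels of different genes are set beside each other below as a description only. The gene lengths used for the scaling were not stated. The reads behind a library were estimated at 10810000 to 15200000 from the steps between low values, and would be 2 times as many if the finer step seen in some genes were 1 read. The transcripts of the factors themselves did not pass the test in their own lines, and so do not check the labels. Foxj3 had 119, 168 and 177 UQRPKM in Foxj3-ES against 124, 145 and 115 in Control, and Zbtb18 had 34.9, 129 and 57.0 UQRPKM in Zbtb18-ES against 46.4, 65.4 and 49.0 in Control, with limma adjusted p = 0.388 for Foxj3 and 0.715 for Zbtb18. Foxj3-ES and Zbtb18-ES are therefore used here as the names of the libraries labelled so, and every direction below rests on these labels. All 10 ESC markers were expressed in each library, with a summed level of 40732 to 44495 UQRPKM in Foxj3-ES, 46627 to 63360 in Zbtb18-ES and 36985 to 41443 in Control. Most of this sum came from Pou5f1 and Dppa5a, and it does not show the single markers that were lower, such as Nanog and Klf4. Control replicate 2 stood apart in base composition: the 10% of mRNA genes richest in GC had a median log2 level that lay 0.83 above that of the poorest 10%, whereas this difference was -0.51 to 0.04 for Foxj3-ES libraries, -0.67 to -0.32 for Zbtb18-ES libraries and -0.21 and -0.15 in the other 2 controls.

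In Foxj3-ES, the libraries labelled so, 5 of the 10 genes passed the test against Control, Stmn2 and Gap43 upward and Mapt, Map1s and Ina downward (limma, Benjamini-Hochberg adjusted p under 0.05). Over all genes tested 14.6% passed in this comparison, 7.54% upward and 7.01% downward. The libraries of the 2 groups did not overlap for 6 of the 10 genes, beside 35.2% of all genes. In Zbtb18-ES 4 of the 10 genes passed, and Tubb3, Map1s, Ina and Nefh were lower than in Control, where 11.8% of all genes passed, 5.31% upward and 6.50% downward. Without overlap were 5 of the 10, beside 34.8% of all genes. Map1b, Nefl and Nefm passed in neither comparison. With mRNA genes alone in the fit, 5 of the 10 passed in Foxj3-ES and 4 in Zbtb18-ES. Of all 15049 genes in that fit, 1099 passed upward and 1622 downward in Foxj3-ES. In Zbtb18-ES 857 passed upward and 1657 downward. Both comparisons use the same 3 control libraries, so the values are given side by side and their overlap is not read as a result. The median log2 fold change of the 10 genes was -0.24 for Foxj3-ES (-0.04 over all genes tested, -0.103 over mRNA genes). The same median was -0.34 for Zbtb18-ES (-0.02 over all genes, -0.1 over mRNA genes). These are levels in bulk RNA, in which fewer cells with a transcript and less of it per cell cannot be told apart.

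**Figure D1:**
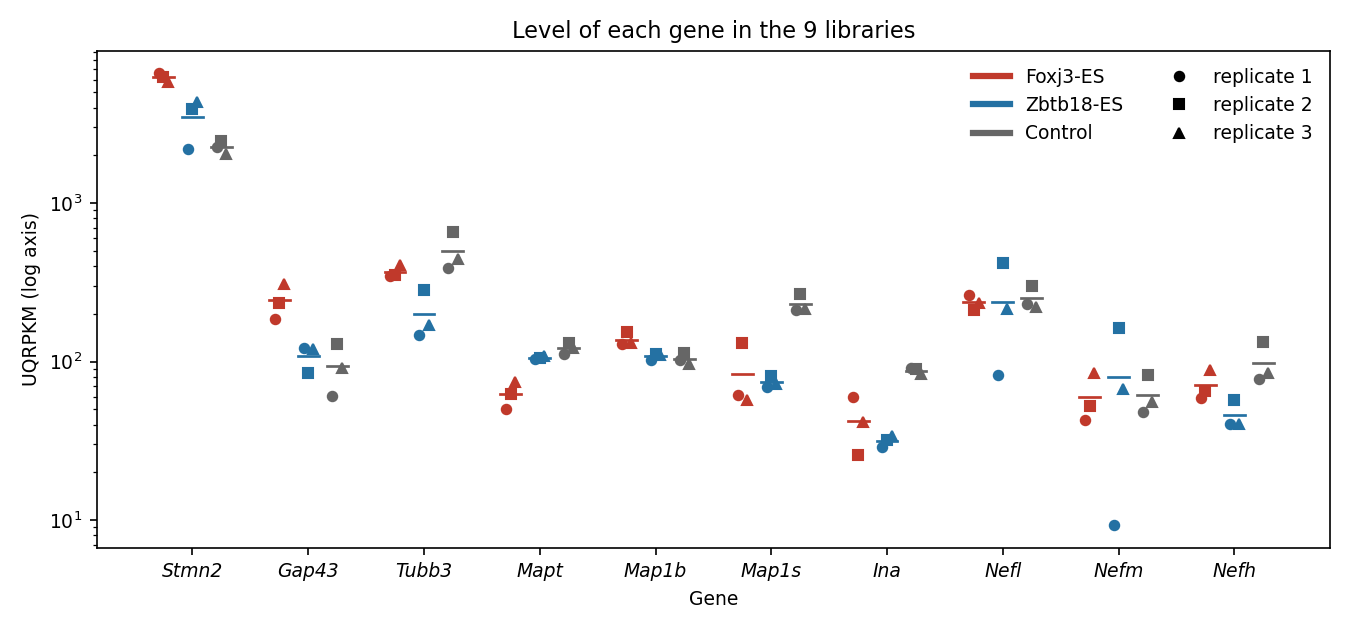
UQRPKM of the 10 genes on a log axis in Foxj3-ES (red), Zbtb18-ES (blue) and Control (grey); each symbol is 1 library, its shape gives the replicate number, and the bar is the mean of 3. Stmn2 was the highest of the 10 genes in all 3 groups, and the 3 Zbtb18-ES libraries spread most for Nefm, between 9.27 and 163 UQRPKM.

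Stmn2 (chr3:8509360-8561606, + strand, GENCODE positions on GRCm38 here and below) encodes stathmin-2 (SCG10), which binds tubulin dimers and destabilises microtubules in growing axons. The libraries held 6583, 6274 and 5793 UQRPKM in Foxj3-ES, 2208, 3922 and 4327 in Zbtb18-ES, beside 2246, 2460 and 2042 in Control. The means were 6216 ± 398 in Foxj3-ES, 3486 ± 1125 in Zbtb18-ES and 2249 ± 209 in Control (SD, n = 3 each). Every Foxj3-ES library lay above every other library, while Zbtb18-ES replicate 1 lay among the controls and the other 2 above them. With 98.3% of mRNA genes at lower levels, Stmn2 was already one of the most abundant transcripts of control ESCs, with 99.4% below it in the Foxj3-ES line. Stmn2 was 2.77-fold higher in Foxj3-ES than in Control, or 1.47 ± 0.23 on the log2 scale (SE; limma adjusted p = 0.00374), and 0.97 after quantile normalisation (adjusted p = 0.0245). For Zbtb18-ES the log2 fold change was 0.58 with a 95% interval of 0.07 to 1.09 (limma adjusted p = 0.132), and 0.88 without Zbtb18-ES replicate 1 (adjusted p = 0.0177). Of 11843 mRNA genes with a mean of at least 10, the 5 whose log2 values followed Stmn2 most closely over the 9 libraries were G0s2, Tbcb, Nars, Bcas1 and Lrrc27, with Pearson's r of 0.985, 0.967, 0.963, 0.956 and 0.947, a description over libraries that share groups. Tbcb, a tubulin-folding cofactor, averaged 4403 ± 542 UQRPKM in Foxj3-ES, 2887 ± 1179 in Zbtb18-ES and 1738 ± 315 in Control (SD, n = 3 each).

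Gap43, the growth cone gene (chr16:42248442-42340651, - strand), had 186, 233 and 310.0 UQRPKM in Foxj3-ES, 121, 84.8 and 120.0 in Zbtb18-ES, compared with 60.6, 129 and 91.5 in Control. All 3 Foxj3-ES libraries were above all others, and the Zbtb18-ES libraries lay within the range of the controls, which itself spanned 2.13-fold. Foxj3-ES exceeded Control by a log2 fold change of 1.40 ± 0.29 (SE; limma adjusted p = 0.0116), and Zbtb18-ES by 0.26, with a 95% interval of -0.38 to 0.90 (limma adjusted p = 0.610). The exact two-sided permutation p for Stmn2 and for Gap43 in Foxj3-ES was 0.1, the smallest that 3 libraries against 3 allow. By mean level Gap43 ranked 3 among the 10 genes in Foxj3-ES, where its libraries overlapped with those of Nefl, and 8 in Control.

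Tubb3, the β-tubulin isotype by which neurons are commonly stained (chr8:123411424-123422015, + strand), had 347, 354 and 405 UQRPKM in Foxj3-ES, 146, 283 and 170.0 in Zbtb18-ES, beside 391, 653 and 445 in Control. All Zbtb18-ES libraries were lower than all others, and Foxj3-ES overlapped with Control. Tubb3 in Zbtb18-ES fell by 1.33 (log2), to 0.397 of the Control level (SE 0.25; limma adjusted p = 0.0118). In Foxj3-ES the log2 fold change was -0.39, with a 95% interval of -0.96 to 0.17 (limma adjusted p = 0.336). As a share of the summed level of 8 β-tubulin genes, Tubb3 made up 1.74 ± 0.0320% in Foxj3-ES, 1.10 ± 0.228% in Zbtb18-ES and 1.92 ± 0.128% in Control (SD, n = 3 each). It was thus a minor isotype in every group, and Tubb5, a widely expressed isotype, held the greatest share, at 41.0 ± 2.13% in Foxj3-ES, 37.9 ± 3.20% in Zbtb18-ES and 38.8 ± 0.588% in Control. Tubb3 lies within the longer gene model Gm20388 on the same strand, and how reads of both were divided was not stated.

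The 3 genes of microtubule-associated proteins each took another course. Mapt (chr11:104231390-104332090, + strand) encodes tau, which binds along axonal microtubules, and it had 50.5, 62.4 and 74.7 UQRPKM in Foxj3-ES, 104, 106 and 108 in Zbtb18-ES, compared with 112, 131 and 121 in Control. The Foxj3-ES libraries were all lower than those of the other groups, and the Zbtb18-ES libraries lay just under the controls without overlap. Mapt in Foxj3-ES fell by 0.96 (log2), to 0.515 of the Control level (SE 0.17; limma adjusted p = 0.00720). In Zbtb18-ES its log2 fold change was -0.19, with a 95% interval of -0.57 to 0.20 (limma adjusted p = 0.535). Antisense gene Gm11659 overlaps Mapt, and whether counting used the strand was not stated.

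Map1s (chr8:70905932-70917529, + strand) encodes a small, widely expressed relative of MAP1A and MAP1B that binds microtubules and links them to autophagy. Its libraries held 61.2, 131 and 57.1 UQRPKM in Foxj3-ES, 68.6, 80.6 and 72.6 in Zbtb18-ES, beside 212, 267 and 214 in Control. No library of either line reached the lowest control, and the highest of the 6 was Foxj3-ES replicate 2. Foxj3-ES had 0.340 of the Control level of Map1s, which fell by 1.56 on the log2 scale (SE 0.28; limma adjusted p = 0.00712). Zbtb18-ES had 0.324 of that level, and here it fell by 1.62 (SE 0.28; limma adjusted p = 0.00812). Its longest transcript has 62.1% GC, the highest of the 10 genes. After a correction of each library for GC content and length, neither value for Map1s passed, at -0.90 for Foxj3-ES (limma adjusted p = 0.0509) and -0.79 for Zbtb18-ES (limma adjusted p = 0.0926).

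Map1b, a microtubule-associated protein of early axon outgrowth (chr13:99421446-99516540, - strand), had 129, 153 and 130.0 UQRPKM in Foxj3-ES, 102, 112 and 110.0 in Zbtb18-ES, compared with 103, 113 and 96.7 in Control. The Foxj3-ES libraries were all above the controls, but the log2 fold change of 0.39, with a 95% interval of 0.07 to 0.71, did not pass (limma adjusted p = 0.102). In Zbtb18-ES the libraries overlapped with Control, at a log2 fold change of 0.05 (limma adjusted p = 0.864). The ratio of Map1s to Map1b was 0.591 ± 0.232 in Foxj3-ES, 0.683 ± 0.0328 in Zbtb18-ES and 2.21 ± 0.156 in Control (SD, n = 3 each). Map1s was the more abundant of the pair in each control library and the less abundant in each library of both lines.

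**Figure D2:**
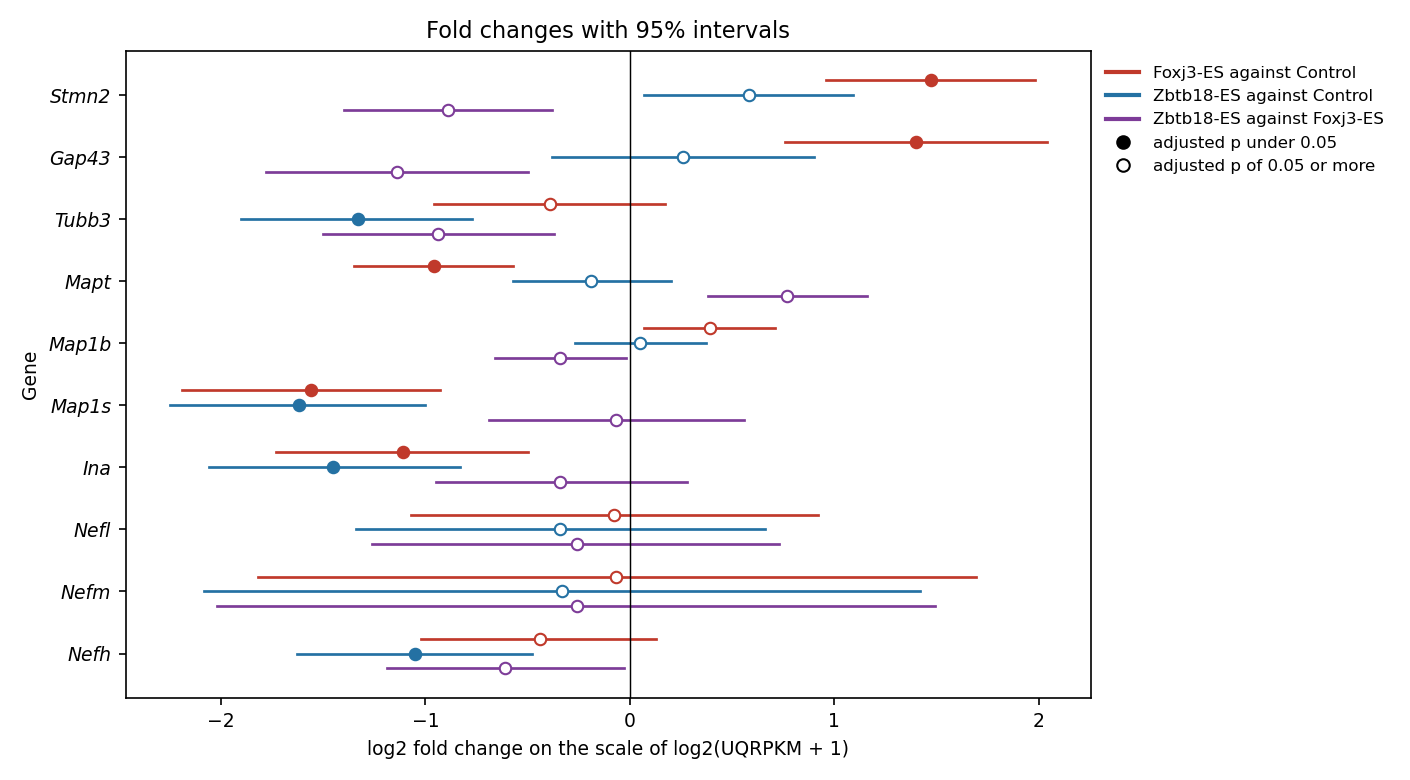
Log2 fold changes of the 10 genes with 95% intervals from limma, for Foxj3-ES against Control (red), Zbtb18-ES against Control (blue) and Zbtb18-ES against Foxj3-ES (purple); filled circles passed at an adjusted p under 0.05. Of the 10 genes, 5 are filled in red, 4 in blue and 0 in purple, and the intervals of Nefm are the widest.

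Ina (chr19:47014698-47025327, + strand) encodes α-internexin, an intermediate filament protein that appears early in developing neurons. It had 59.9, 25.7 and 41.6 UQRPKM in Foxj3-ES, 28.9, 31.8 and 34.0 in Zbtb18-ES, beside 90.9, 89.2 and 83.1 in Control. The controls kept within 1.09-fold of each other and lay above all 6 other libraries, of which those of Foxj3-ES spanned 2.33-fold. Ina in Zbtb18-ES fell by 1.45 (log2; SE 0.28; limma adjusted p = 0.0119), to 0.367 of the Control level. In the Foxj3-ES line it fell by 1.11 (SE 0.28; limma adjusted p = 0.0257), to 0.463 of the Control level. The call in Foxj3-ES was lost with the GC and length correction (-0.92, adjusted p = 0.0698), with only these 2 groups in the fit (adjusted p = 0.0531) and without any 1 control (adjusted p = 0.0805, 0.0535 and 0.0672 without replicates 1, 2 and 3). It was also lost without Foxj3-ES replicate 2 (-0.80, adjusted p = 0.0550) or replicate 3 (adjusted p = 0.0558). The first 456 bases of Ina overlap Nt5c2 on the opposite strand (chr19:47014698-47015153).

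Nefh, the heavy chain of neurofilaments (chr11:4938754-4948064, - strand), had 58.8, 65.3 and 89.0 UQRPKM in Foxj3-ES, 40.2, 57.6 and 40.6 in Zbtb18-ES, compared with 77.8, 133 and 84.2 in Control. The Zbtb18-ES libraries were all below those of both other groups, and Foxj3-ES overlapped with Control. Nefh in Zbtb18-ES fell by 1.05 (log2), to 0.482 of the Control level (SE 0.26; limma adjusted p = 0.0287). This call was lost with the GC and length correction (-0.54, adjusted p = 0.119), without a trend of the spread (adjusted p = 0.0534), without Control replicate 2 (-0.82, adjusted p = 0.0726) or 3 (adjusted p = 0.0581), and without Zbtb18-ES replicate 1 (adjusted p = 0.0883) or 3 (adjusted p = 0.0939). In Foxj3-ES the log2 fold change was -0.44, with a 95% interval of -1.02 to 0.13 (limma adjusted p = 0.287). Over the 9 libraries the log2 values of Nefh followed those of Tubb3 with a Pearson's r of 0.961, and both are GC-rich, with 58.4% and 57.9% GC.

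Nefl (chr14:68083863-68089095, + strand) and Nefm (chr14:68082590-68124846, - strand), the light and medium chains, passed in no comparison and varied most within a group. Nefl had 263, 211 and 234 UQRPKM in Foxj3-ES, 82.7, 418 and 215 in Zbtb18-ES, beside 231, 301 and 220.0 in Control. Nefm had 42.5, 52.7 and 84.1 UQRPKM in Foxj3-ES, 9.27, 163 and 67.4 in Zbtb18-ES, compared with 47.8, 82.4 and 55.2 in Control. For both genes Zbtb18-ES replicate 1 was the lowest of all 9 libraries and Zbtb18-ES replicate 2 the highest. Within Zbtb18-ES the highest library exceeded the lowest by 5.06-fold for Nefl and 17.6-fold for Nefm, and the Nefm values rest on an estimated 35.3 reads in the lowest library and 702 in the highest. In Zbtb18-ES against Control the log2 fold change of Nefm was -0.33, with a 95% interval of -2.08 to 1.42 (limma adjusted p = 0.833), and that of Nefl was -0.34, with an interval of -1.34 to 0.66 (limma adjusted p = 0.675). The value for Nefm was 0.79 when Zbtb18-ES replicate 1 was left out, and -1.21 when replicate 2 was. In Foxj3-ES against Control the log2 fold change of Nefl was -0.08 (limma adjusted p = 0.932) and that of Nefm -0.07 (limma adjusted p = 0.967). Their log2 values ran together over the 9 libraries, with a Pearson's r of 0.941. The annotated Nefl lies wholly within the span of Nefm on the opposite strand (5233 bases). These are spans from start to end with introns included, and how far the exons of Nefl and Nefm overlap was not examined. Whether reads of one gene were counted for the other was not tested.

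**Figure D3:**
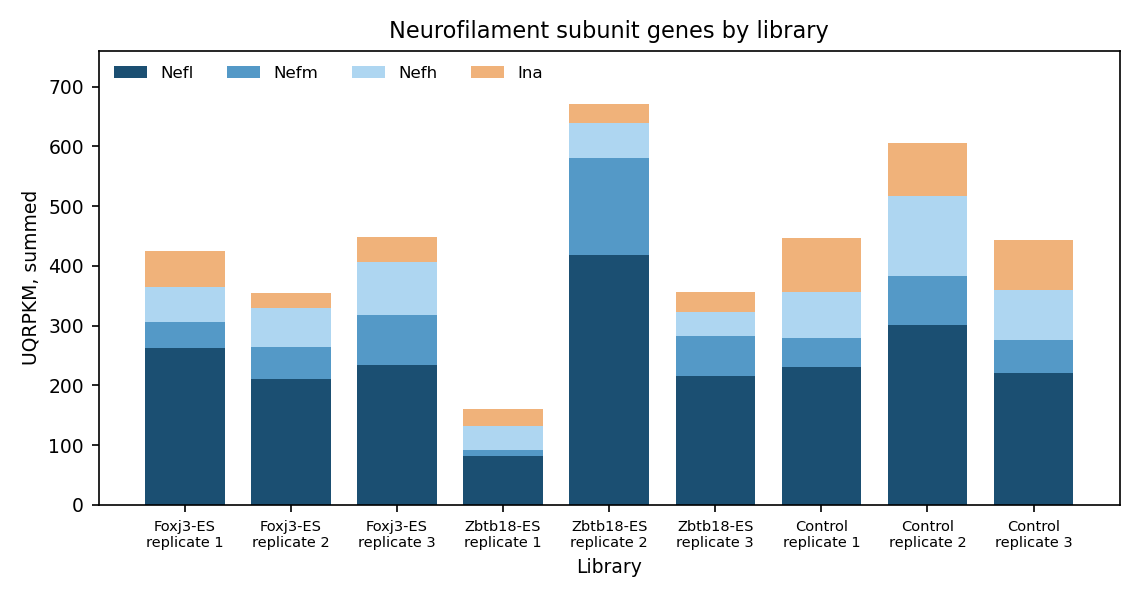
Summed UQRPKM of the 4 neurofilament subunit genes in each of the 9 libraries, as stacked bars from 0 with Nefl (dark blue), Nefm (mid blue), Nefh (light blue) and Ina (orange). The sum was 161 in Zbtb18-ES replicate 1 and 671 in Zbtb18-ES replicate 2, the lowest and the highest of the 9, and Nefl was the tallest part in every library.

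As a share of the 4 neurofilament subunit genes, Nefl made up 57.9 ± 5.16% in Foxj3-ES, 58.0 ± 5.84% in Zbtb18-ES and 50.3 ± 1.06% in Control (SD, n = 3 each). Ina made up 10.2 ± 3.52% in Foxj3-ES, 10.7 ± 6.69% in Zbtb18-ES and 18.0 ± 2.90% in Control. The share of Ina in Zbtb18-ES replicate 1 was 18.0%, within the 14.7 to 20.3% of the controls, although its own level there was 28.9 UQRPKM, since the sum of all 4 was low in that library. The summed level of the 4 genes was 409 ± 48.8 UQRPKM in Foxj3-ES, 396 ± 257 in Zbtb18-ES and 498 ± 92.9 in Control. These shares were not tested.

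Zbtb18-ES was also set directly against Foxj3-ES. None of the 10 genes passed (0 by limma), where 0.687% of all genes passed. At an unadjusted p under 0.05 there were 6 of the 10, beside 16.2% of all genes. The libraries of the 2 lines did not overlap for 6 of the 10 genes, 1 upward and 5 downward, against 21.4% of all genes tested. The largest differences were those of Gap43, at -1.14 with a 95% interval of -1.78 to -0.50 (limma adjusted p = 0.102), Tubb3, at -0.94 with an interval of -1.50 to -0.37 (adjusted p = 0.121), and Stmn2, at -0.89 with an interval of -1.40 to -0.38 (adjusted p = 0.108). Mapt was higher in every Zbtb18-ES library than in every Foxj3-ES library, with a log2 difference of 0.77 and an interval of 0.38 to 1.16 (limma adjusted p = 0.0786). Mapt passed with mRNA genes alone (0.77, limma adjusted p = 0.0473) and with the GC and length correction (0.77, limma adjusted p = 0.0476). It also passed with libraries rescaled to the same sum (0.96, limma adjusted p = 0.0401), a scaling that moved the median of all genes to 0.16. For Map1s and Ina, which fell in both lines, the log2 differences between the lines were -0.07 (95% interval -0.69 to 0.56) and -0.34 (-0.95 to 0.28), so that differences of these sizes remain possible. The exact two-sided permutation p for Gap43, Tubb3, Stmn2 and Mapt was 0.1, the smallest possible here.

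Single libraries carried part of the spread. Control replicate 2 was the highest control for 9 of the 10 genes, Ina being the exception, and for 54.6% of mRNA genes. Zbtb18-ES replicate 1 was the lowest of its group for 9 of the 10 genes, Gap43 being the exception, and for 33.7% of all genes tested. Map1s, Nefh and Nefm, all GC-rich, moved most under the GC and length correction in both lines, whereas Stmn2, with 41.3% GC, had a log2 fold change of 1.47 before and 1.48 after it in Foxj3-ES. Stmn2, Gap43 and Mapt in Foxj3-ES, and Tubb3 and Ina in Zbtb18-ES, also passed with the correction. Map1b in Foxj3-ES passed with the correction alone, at 0.52 (limma adjusted p = 0.0157). With libraries rescaled to the same sum, Map1b there was 0.044 (limma adjusted p = 0.858). How much of any change the base composition of the libraries carries was not tested further.

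**Figure D4:**
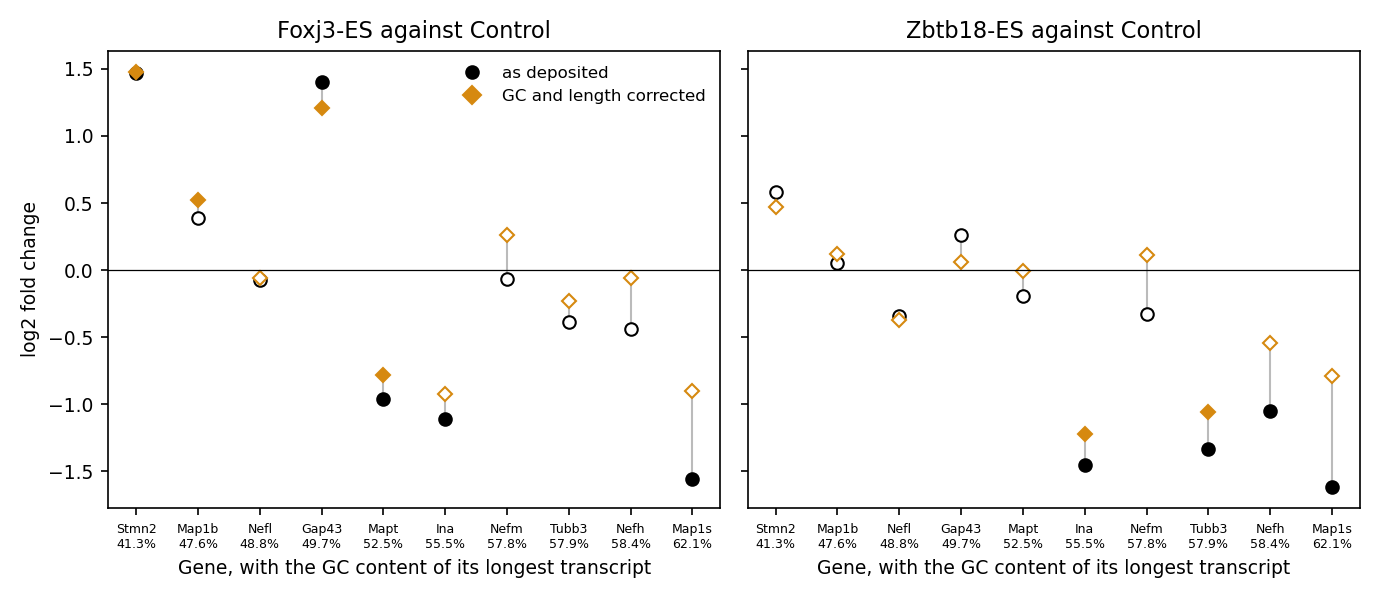
Log2 fold changes of the 10 genes against Control in Foxj3-ES (left) and Zbtb18-ES (right), from the deposited values (black circles) and after correction for GC content and length (orange diamonds), with genes ordered from the lowest to the highest GC content; filled symbols passed at a limma adjusted p under 0.05. Map1s, with 62.1% GC, has the longest line between its symbols in both panels and is open after correction.

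Related genes were counted in 6 lists, by the same test, where 14.6% of all genes passed in Foxj3-ES and 11.8% passed for Zbtb18-ES. With the GC and length correction these shares were 13.5% and 9.61%. Of 16 stathmins and other microtubule regulators tested, 0 rose and 0 fell in Foxj3-ES, and 1 rose and 1 fell in Zbtb18-ES, with medians of 0.24 and -0.04. Mapre3, a protein of growing microtubule ends, rose by 1.15 in Zbtb18-ES (128, 98.9 and 133 UQRPKM, against 47.3, 72.5 and 43.6 in Control; limma adjusted p = 0.0314). Map6, which protects microtubules from cold, fell by 1.24 (limma adjusted p = 0.0258). Leaving out 1 of Control replicates 1 and 3 or Zbtb18-ES replicates 1 and 3 ended each call. That of Map6 was also lost without Control replicate 2. The call of Mapre3 was also lost without a trend of the spread and with a filter of above 0 in 1 library. Over all alternatives the limma adjusted p reached 0.102 for Mapre3 and 0.0844 for Map6. With the GC and length correction Mapre3 passed and Map6 did not. Stmn1, the stathmin of dividing cells, did not pass, at 0.63 in Foxj3-ES (limma adjusted p = 0.101) and 0.81 in Zbtb18-ES (limma adjusted p = 0.0517). Every library of both lines was nevertheless above every control for Stmn1. The ratio of Stmn2 to Stmn1 was 3.99 ± 0.396 in Foxj3-ES, 2.04 ± 1.0 in Zbtb18-ES and 2.25 ± 0.444 in Control (SD, n = 3 each). This ratio was not tested.

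Of 14 tubulins, 2 fell in each line and 0 rose. Tuba1a had 3358, 3807 and 3982 UQRPKM in Foxj3-ES, 2926, 4536 and 3990 in Zbtb18-ES, beside 5742, 6737 and 5600 in Control, and its log2 fold changes were -0.70 (Foxj3-ES; limma adjusted p = 0.0297) and -0.68 (Zbtb18-ES; adjusted p = 0.0375). Those of Tubb4b were -0.76 (Foxj3-ES; limma adjusted p = 0.0275) and -0.72 (Zbtb18-ES; adjusted p = 0.0373). All 4 of these calls were lost without a trend of the spread, with a filter of above 0 in 1 library and without several single libraries. Over all alternatives their limma adjusted p reached 0.119. Both genes are expressed in many cell types, and for both every library of either line was below every control. With the GC and length correction the same genes fell, and Tubb5 fell too in Zbtb18-ES (-0.55, limma adjusted p = 0.0487). Over the 14 tubulins the median was -0.18 for Foxj3-ES and -0.37 for Zbtb18-ES.

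Of 12 other intermediate filament genes, 1 fell in the Foxj3-ES line, and 2 did for Zbtb18-ES, with medians of -0.19 and -0.32. Lmnb2, a lamin of the nuclear envelope, fell by 0.66 in Foxj3-ES (limma adjusted p = 0.0195, 0.0671 with the GC and length correction, and lost without Control replicate 1 or any 1 Foxj3-ES library) and by 0.84 in Zbtb18-ES (limma adjusted p = 0.0103). Gfap, the filament of astrocytes, was low throughout, with 1.07, 0.944 and 5.32 UQRPKM in Zbtb18-ES against 8.94, 25.2 and 7.93 in Control, and its call in Zbtb18-ES (limma adjusted p = 0.0354) was lost without any 1 control. Vim and Nes, filaments of progenitors and many other cells, did not pass in either line. With the GC and length correction the counts turned upward: Des (0.69, limma adjusted p = 0.0161), Krt8 (0.69, adjusted p = 0.0223) and Krt18 (0.94, adjusted p = 0.0371) rose in Foxj3-ES and 0 fell, and in Zbtb18-ES Krt8 rose (0.64, adjusted p = 0.0356) and Lmnb2 fell.

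Of 22 growth cone and axon outgrowth genes tested, Zbtb18-ES had 5 that fell and Foxj3-ES had 1, Dpysl5, and 0 rose in either. Fscn1, an actin-bundling protein, had 554, 744 and 497 UQRPKM in Zbtb18-ES against 1038, 1732 and 1178 in Control, and fell by 1.12 on the log2 scale (limma adjusted p = 0.0132, and 0.0637 with the GC and length correction). Coro1a, an actin-binding protein, fell by 1.16 (limma adjusted p = 0.0337) and Crmp1, a collapsin response mediator, by 1.08 (limma adjusted p = 0.0460), and Gprin1 was listed at 0.00, 0.586 and 0.00 UQRPKM in Zbtb18-ES against 3.63, 5.37 and 1.77 in Control (limma adjusted p = 0.0248). The remaining one was Basp1. The calls of Coro1a, Crmp1 and Basp1 were lost without any 1 control, and that of Gprin1 when Control replicate 1 or 2, or Zbtb18-ES replicate 1 or 3, was left out. The call of Dpysl5 in Foxj3-ES (-0.97, limma adjusted p = 0.0324) was lost with only these 2 groups in the fit, without a trend of the spread, and when 1 of Foxj3-ES replicates 1 and 3 or Control replicates 1 and 2 was left out, and it was -0.62 with the GC and length correction (adjusted p = 0.0793). All 5 calls in Zbtb18-ES were lost with the GC and length correction, where their adjusted p ran from 0.0637 to 0.130. Over the list the median was -0.31 for Foxj3-ES and -0.55 for Zbtb18-ES.

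Of 15 genes of axonal motors and scaffold, 0 passed in Foxj3-ES and 1 fell in Zbtb18-ES, with medians of 0.14 and -0.10. Kif21b, a kinesin of neurons, had 76.0, 90.9 and 88.1 UQRPKM in Zbtb18-ES against 160.0, 230.0 and 134 in Control, and fell by 1.0 on the log2 scale (limma adjusted p = 0.0160, and 0.0536 without Zbtb18-ES replicate 1). With the GC and length correction Kif21b (0.95, limma adjusted p = 0.00362) and Sptbn4, a spectrin (0.94, adjusted p = 0.00316), rose in Foxj3-ES, and Sptbn4 rose in Zbtb18-ES (0.89, adjusted p = 0.00507) while Kif21b fell by 0.56 (adjusted p = 0.0315). Of 13 enzymes that modify tau and neurofilaments, 2 fell in each line and 0 rose, with medians of -0.37 for Foxj3-ES and -0.48 for Zbtb18-ES. Ppp2r2c, a regulatory subunit of protein phosphatase 2A, had 77.1, 76.2 and 52.6 UQRPKM in Foxj3-ES, 34.3, 37.1 and 40.0 in Zbtb18-ES, compared with 121, 183 and 113 in Control. It fell by 1.0 in Foxj3-ES (limma adjusted p = 0.0194, and 0.0586 without Foxj3-ES replicate 3) and by 1.85 in Zbtb18-ES (limma adjusted p = 0.00238). Mark2, a kinase of tau and other microtubule-associated proteins, fell by 0.95 in Foxj3-ES (limma adjusted p = 0.0196, and up to 0.0698 without Foxj3-ES replicate 1 or 2) and by 0.78 in Zbtb18-ES (limma adjusted p = 0.0461, 0.209 with the GC and length correction, and lost without any 1 library of the 2 groups). With that correction Mark4, a kinase of the same family, rose in Foxj3-ES (0.78, limma adjusted p = 0.0267).

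Several defining markers of neurons were at or near 0. Of 15 neuron markers, Dcx and Scg2 were listed at 0 in all 9 libraries, Syt1, Slc17a6 and Map2 stayed below 2 UQRPKM in all, and 10 were tested. The summed level was 1375 to 1561 UQRPKM in Foxj3-ES, 809 to 1002 in Zbtb18-ES and 1468 to 1595 in Control, most of it from Uchl1, Chga and Elavl3. Gad1 alone rose in Foxj3-ES, at 17.3, 19.9 and 22.0 UQRPKM against 11.3, 9.03 and 9.45 in Control (limma adjusted p = 0.0436, lost without any 1 library of the 2 groups), and Uchl1 alone fell in Zbtb18-ES, at 717, 521 and 568 UQRPKM against 1116, 1162 and 1174 in Control (limma adjusted p = 0.00384). Uchl1, a ubiquitin hydrolase, is also made by cells other than neurons. Over all genes tested 14.6% passed in Foxj3-ES and 11.8% in Zbtb18-ES.

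Markers of other cells were low beside those of ESCs. Summed levels of neural progenitor markers were 93.2 to 130.0 UQRPKM in Foxj3-ES, 79.6 to 102 in Zbtb18-ES and 134 to 191 in Control. Slc1a3 was the largest part of this sum in every library, and 1 of 7 tested, Sox1, was lower in each line. Glial markers summed to 23.1 to 36.9 UQRPKM in Foxj3-ES, 21.3 to 29.1 in Zbtb18-ES and 28.1 to 38.1 in Control, with 0 of 4 tested passing in Foxj3-ES and Gfap lower in Zbtb18-ES. Fibroblast markers summed to 155 to 237 UQRPKM in Foxj3-ES, 68.6 to 102 in Zbtb18-ES and 155 to 174 in Control, most of it from Thy1. Of these, 0 of 4 passed in Foxj3-ES and Thy1 was lower in Zbtb18-ES, while Lum was listed at 0 throughout. Markers of primitive endoderm reached at most 27.7 UQRPKM summed, with 0 of 5 passing in either line, and those of mesoderm at most 22.2 UQRPKM, of which T and Mixl1 were lower in Foxj3-ES and Mixl1 was lower in Zbtb18-ES, of 6 tested. Of the 10 ESC markers, 5 were lower in Foxj3-ES (Sox2, Nanog, Esrrb, Klf4 and Sall4). Nanog, Klf4 and Sall4 were lower and Dppa5a higher in Zbtb18-ES. Of these marker calls, those of Nanog and Klf4 in both lines and Thy1 in Zbtb18-ES held without any 1 library. What part, if any, a change in the mix of cells had in the levels of the 10 cytoskeletal genes was not tested.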

How the data were processed

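Expression was measured by RNA-seq in 3 libraries each of Foxj3-ES, Zbtb18-ES and Control. The authors deposited upper-quartile-scaled RPKM (UQRPKM) for 44788 genes. The submitters' processing notes name mm10 and DESeq, without versions, and neither an aligner, a read counter nor an annotation is given in the sources used here. All value columns matched a library by their label.

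The deposited values were taken as log2(UQRPKM + 1), and as they are no counts, no count test was run. Fold changes on this scale understate those of low genes. All 9 libraries entered 1 limma fit (limma 3.58.1, R 4.3.3) in which the spread followed the mean level, over the 22268 genes that reached 1 UQRPKM in 3 or more libraries. The Benjamini-Hochberg adjustment ran over all genes tested, every adjusted p of a gene comes from limma, and rose or fell is written of a gene at an adjusted p under 0.05. For single genes a two-sided exact permutation test was run beside it.

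The depth of each library was inferred from steps between its low values, and is approximate. It used the length of the longest transcript of each gene in GENCODE M21 (GRCm38). GC content came from the same transcripts, matched by symbol for 30935 genes and by older symbol for 1222. The correction for GC content and length was a smooth curve (span 0.3) in each library. Promoters came from RefSeq (GRCm38.p6).

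The members and lists were chosen with earlier results of these data known. Named were all 10 members, up to 4 genes of each list of related genes with the largest change among those that passed against Control, the 5 mRNA genes most like the most abundant member, and Foxj3 and Zbtb18. Vim, Nes, Stmn1, Tubb5, Dpysl5, Basp1, Des, Krt8, Krt18, Sptbn4, Mark4, Nt5c2, the overlapping gene models and the markers are named beyond this rule, for their role or position or after their values were seen. Alternatives covered the pseudocount, the filter on low values, the scaling, the libraries and genes in the fit, the trend, a replicate block, the GC and length correction and a 2-fold minimum.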

Additional observations from a re-analysis of the deposited data

Results flagged for a closer look

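Kif21b, a kinesin of neurons among the genes of axonal motors and scaffold, differed between the lines themselves. It averaged 85.0 ± 7.91 UQRPKM in Zbtb18-ES and 259 ± 39.8 UQRPKM in Foxj3-ES (SD, n = 3 each), a log2 difference of -1.59 ± 0.21 (SE; limma adjusted p = 0.0131). All 3 Zbtb18-ES libraries were lower than all 3 Foxj3-ES libraries. The call was lost without Foxj3-ES replicate 2 or Zbtb18-ES replicate 3, with an adjusted p of up to 0.0647, and with the GC and length correction the difference was -1.51 (adjusted p = 0.00170).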

How the results depend on the processing

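In Foxj3-ES the number of the 10 genes that passed was 4 to 5 without single libraries, and in Zbtb18-ES it was 3 to 4, with 2 under the GC and length correction. Zbtb18-ES against Foxj3-ES gave 0 without any single library, and 1, Mapt, with libraries rescaled to the same sum, with mRNA genes alone or with the GC and length correction. With the replicate block the counts were 5 in Foxj3-ES, 4 in Zbtb18-ES and 0 between the lines, and no call of the 10 genes changed. The replicate numbers did not pair the libraries, since same-numbered libraries deviated from their group means with correlations of -0.052 to 0.082. Rescaling to the same sum moved the median of all genes to -0.35 in Foxj3-ES, -0.16 in Zbtb18-ES and 0.16 between the lines, and the genes that passed to 874 higher and 4695 lower in Foxj3-ES (1679 and 1562 as deposited) and 897 higher and 2743 lower in Zbtb18-ES (1182 and 1447). Relative to that shift Nefh in Foxj3-ES, at -0.79 (limma adjusted p = 0.0428), is the gene that passed with this scaling alone. Signs turned only for values that had not passed. Nefm was 0.26 in Foxj3-ES and 0.11 in Zbtb18-ES with the GC and length correction, Map1b in Zbtb18-ES was -0.10 with the same sum, and Map1s between the lines was 0.12 with the same sum and 0.12 with the correction. Without single libraries the log2 fold change in Foxj3-ES ran from -0.16 to 0.063 for Nefl and -0.34 to 0.16 for Nefm. In Zbtb18-ES it ran from -0.019 to 0.52 for Gap43, -0.0032 to 0.11 for Map1b, -0.89 to 0.27 for Nefl and -1.21 to 0.79 for Nefm. Between the lines it ran from -0.28 to 0.31 for Map1s, -0.81 to 0.35 for Nefl and -1.14 to 0.86 for Nefm. Of 90 values without single libraries, 81 kept call and sign in Foxj3-ES (5 calls lost, 4 signs changed), 81 for Zbtb18-ES (4 lost, 1 gained, 4 signs changed) and 86 between the lines (4 signs changed). Of 120 values under other alternatives, these numbers were 114, 115 and 115. Both totals include values whose sign could not change. Leaving out a library of the group not compared left the fold change as it was. So did the filters, the fit of only the 2 groups compared, the trend, mRNA genes alone and the replicate block. Such values could lose or gain a call only.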
